A study of Oryza sativa with 10 samples.

Results

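In developing rice (Oryza sativa) seeds, 244 of 55801 annotated genes were chosen because their RNA was low in both CRISPR lines at 72 hours after fertilization (HAF). CPM, a gene's reads multiplied by 1000000 and divided by all reads of its library, had to reach 5 in the wild type and in both overexpression lines at 72 HAF. In both CRISPR lines at 72 HAF, CPM had to be at most 0.6 times the lowest of those 3 values. Wild-type CPM at 72 HAF also had to exceed 0.4 times wild-type CPM at 48 HAF, and LOC_Os01g50910 was left out by name. Without the ratio of 0.6, 16001 genes met these conditions, so members made up 1.52% of them. The members were thus chosen by their CPM in the 5 libraries at 72 HAF and in WT at 48 HAF, and their low values in the CRISPR lines at 72 HAF are not a result. The 48 HAF libraries of the CRISPR and overexpression lines played no part in the choice.

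Husk-free seeds of 5 genotypes were collected at both times, and each genotype gave a single library per time, 10 libraries in all. The CRISPR lines are Cr78_8.22.2, whose label names MADS78 as the edited gene (CR78 below), and Cr79_11.25.3, whose label names MADS79 (CR79). The overexpression lines are OE78-8 for MADS78 (OE78) and OE79-3 for MADS79 (OE79), and the control is the wild type (WT). Each manipulation is represented by 1 line, and neither the cultivar, nor the transgene promoter, nor the edits themselves are described in the labels. No genotype was repeated at a time, so a value carries no replicate error of its own, and p-values below measure only the spread between the lines of a class. MADS78 and MADS79 encode type I MADS-box transcription factors of the early seed.

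RNA of the targeted genes served to check the labels. MADS78 (LOC_Os09g02830) stood at 0.0642 CPM (1 read) in CR78 and 0 in CR79, at 134 CPM in OE78 and 0 in OE79, and at 0 in WT at 72 HAF. At 48 HAF it stood at 0.0643 CPM in CR78, 0 in CR79, 0.375 in OE78, 0.359 in OE79 and 0.178 in WT. MADS79 (LOC_Os01g74440) stood at 0.193 CPM (3 reads) in CR78, 0 in CR79, 0 in OE78, 0.456 in OE79 and 1.11 in WT at 72 HAF. At 48 HAF it stood at 2.31, 2.16, 1.38, 2.33 and 1.96 CPM in CR78, CR79, OE78, OE79 and WT. Of the libraries labelled overexpression, only the library labelled OE78 at 72 HAF showed raised RNA of its targeted gene. The names OE78 and OE79 are used below for the libraries labelled so. RNA levels do not check the CRISPR edits. Library totals lay between 12267337 counts in CR79 at 72 HAF and 18040600 in WT at 72 HAF.

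Among the members with known functions were DREB1 factors, genes of abscisic acid breakdown and signalling, and genes of ethylene synthesis. DREB1 proteins, also called CBFs, are AP2-type activators that bind a short DNA element in the promoters of cold and drought genes, and their transcripts rise quickly after cold, touch or other stress. Abscisic acid is the hormone of seed maturation and water stress: 8'-hydroxylases break it down, and clade A protein phosphatases 2C (PP2C) hold its signalling kinases inactive. Ethylene is made by ACC synthases and then ACC oxidases.

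The members were a small part of each library. Together they took 0.633% of all counts in CR78, 0.364% in CR79, 1.43% in OE78, 2.22% in OE79 and 1.41% in WT at 72 HAF. At 48 HAF they took 2.03% in CR78, 1.65% in CR79, 0.959% in OE78, 1.68% in OE79 and 2.23% in WT. The CRISPR lines had the smallest shares at 72 HAF, while OE78 had the smallest at 48 HAF. These are whole seeds, so fewer cells of a type and less RNA per cell cannot be told apart. Summed levels of marker genes of seed tissues are given further on.

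At 72 HAF, the values the rule used, the median member stood in CR78 at 0.436 times its WT level and in CR79 at 0.291 times. In OE78 the median member stood at 0.993 times WT, and in OE79 at 1.56 times. CR79 held the lowest of the 5 values at 72 HAF for 195 members and CR78 for 49. OE79 held the highest for 218 members, WT for 15 and OE78 for 11. CR79 was below CR78 in 59.7% of the 16001 genes, and OE79 exceeded both OE78 and WT in 26.5% of them. CR79 was at most 0.6 times CR78 for 102 members (41.8%), and for 4.38% of the 16001 genes. These values were among those that chose the members, so the counts are a description and nothing is read from them.

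**Figure D1:**
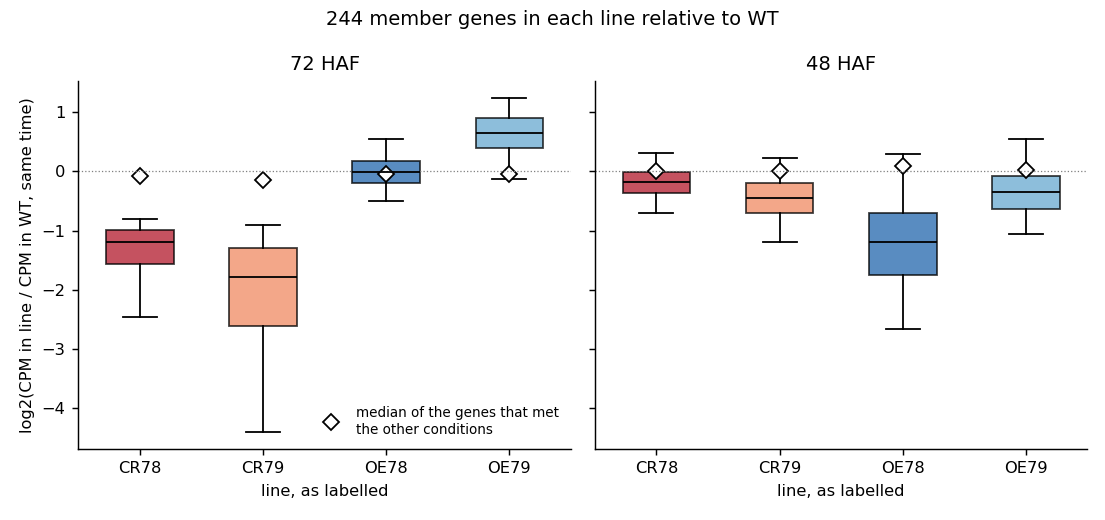
Each box gives the 244 members' CPM in a line relative to WT at the same time, on a log2 scale, at 72 HAF (left panel) and 48 HAF (right panel). Boxes span the quartiles with the median as a line, whiskers run between the 5th and 95th percentile, and diamonds mark the median of the genes that met the other conditions. At 72 HAF the CRISPR boxes lie below 0 by the choice of genes. At 48 HAF the median ratio to WT was 0.882 in CR78, 0.734 in CR79, 0.439 in OE78 and 0.789 in OE79.

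At 48 HAF, which the choice of members did not use apart from WT, the order of the lines was different. The median member stood at 0.882 times WT in CR78, 0.734 times in CR79, 0.439 times in OE78 and 0.789 times in OE79. OE78 held the lowest of the 5 values for 187 members, against 40 for CR79, 6 for CR78, 6 for WT and 5 for OE79. OE78 held the lowest value in 12.6% of the 16001 genes. OE78 was at most 0.6 times the lowest of the other 4 libraries for 104 members (42.6%), a condition that 1.42% of the 16001 genes met. The mirror of the rule, both CRISPR lines at most 0.6 times the lowest of OE78, OE79 and WT at 48 HAF, was met by 0 members and by 0.131% of the 16001 genes, so the members' count was near the background and is no result about them. Against WT alone, whose 48 HAF value the rule used, CR78 was lower for 184 members (75.4%) and CR79 for 210 (86.1%), where 49.1% and 49.9% of the genes that met the other conditions were lower. OE78 was below WT for 222 members (91.0%) and OE79 for 196 (80.3%), where the same shares were 35.1% and 45.1%. In each of the 4 lines most members thus lay under their WT level at 48 HAF, and the median was lowest in OE78.

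The CRISPR and overexpression lines were compared at 48 HAF with the quasi-likelihood test of edgeR, two-sided, in a fit of the 5 libraries at that time in which the 2 lines of a class stood for each other as replicates. No gene of 25124 tested passed an adjusted p of 0.05, so 0 members were called higher (background 0%) and 0 lower (background 0%). At an unadjusted p under 0.05, 60 members were higher in the CRISPR lines (24.6%, against 3.38% of all tested genes) and 7 were lower (2.87%, against 2.87%). By the Wald test of DESeq2 on the same libraries, 14 members were higher (5.74%, against 0.366% of all tested genes) and 3 lower (1.23%, against 0.175%). At its unadjusted p under 0.05 these were 64 (26.2%, against 2.87% of all tested genes) and 7 (2.87%, against 1.99%). The median member was higher in the CRISPR lines by 0.39 on the log2 scale, against 0.0041 for all tested genes. The difference was above 0 for 181 members (74.2%) and for 50.5% of all tested genes.

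That difference rested on OE78. Without the OE78 library the members' median was 0.050, with 0 members higher (0.0242% of all tested genes) and 1 lower, PBZ1 (0.0443%). Without the OE79 library it was 1.01, with 54 members higher and 1 lower, against 0.483% and 0.0885% of all tested genes. Without CR78 the median was 0.22, and without CR79 it was 0.53, with 0 members called in either case. In these fits the class with a lone library is assumed to vary like the others. With the CRISPR lines set against the overexpression lines and WT together, the median was 0.092.

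**Figure D2:**
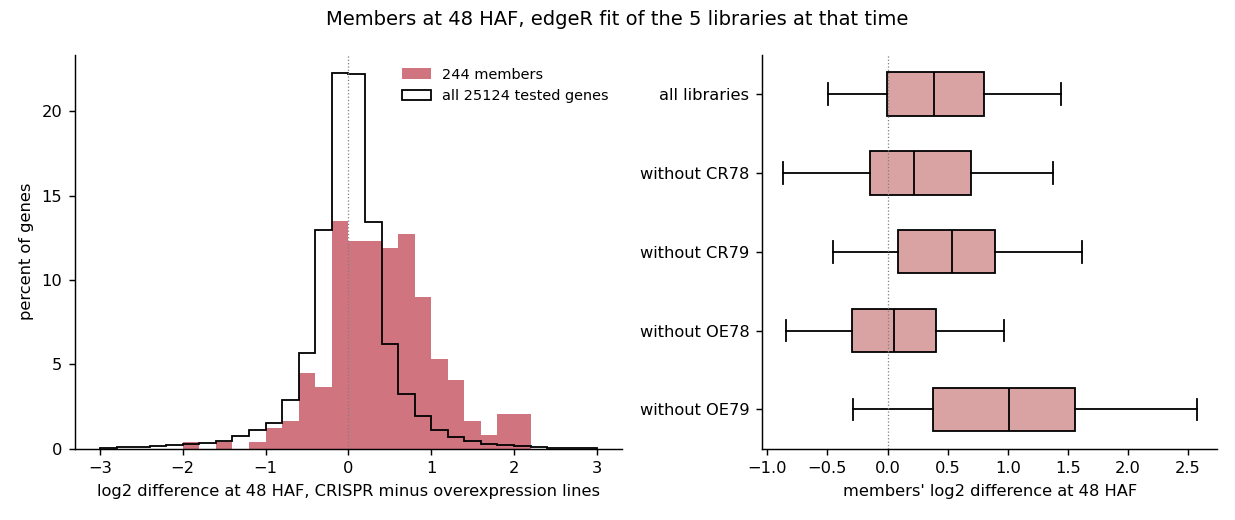
The left panel gives the log2 difference of the CRISPR minus the overexpression lines at 48 HAF for the 244 members (filled) and for all 25124 tested genes (line), as percent of each set; 174 tested genes and 0 members lie beyond the plotted limit of 3. The right panel gives the members' differences (box, quartiles and median; whiskers, 5th to 95th percentile) with all libraries and with each library left out, where the median runs between 0.050 without OE78 and 1.01 without OE79.

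The DREB1 family held 4 members. DREB1B and DREB1C stood in the gene lists, while DREB1G and DREB1H were named after their values were seen. DREB1B (LOC_Os09g35010) stood at 18.3 CPM in CR78, 1.63 in CR79, 58.8 in OE78, 73.9 in OE79 and 38.6 in WT at 72 HAF. At 48 HAF it stood at 62.7, 51.6, 9.82, 19.3 and 62.3 CPM in the same lines. Both CRISPR lines were thus above both overexpression lines at 48 HAF and below them at 72 HAF, and the lowest value at 48 HAF was OE78. The difference at 48 HAF was 2.02 ± 0.33 (log2, standard error) with an adjusted p of 0.440 (edgeR), and the DESeq2 call for it was higher in the CRISPR lines. Its neighbour DREB1H (LOC_Os09g35020) stood at 25.4 CPM in CR78, 0.408 in CR79, 76.4 in OE78, 98.8 in OE79 and 50.8 in WT at 72 HAF. Its 48 HAF values were 106, 87.5, 14.4, 31.1 and 107 CPM in the same lines, a difference of 2.13 ± 0.36 (adjusted p = 0.440, edgeR). Without OE79 the differences were 2.63 for DREB1B and 2.83 for DREB1H and both passed the threshold (edgeR adjusted p = 0.00704 and 0.00397). CR79 held 5 reads of DREB1H at 72 HAF, against 396 in CR78.

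DREB1C (LOC_Os06g03670) stood at 4.30 CPM in CR78, 0.408 (5 reads) in CR79, 26.71 in OE78, 39.5 in OE79 and 20.6 in WT at 72 HAF. The same lines held 37.2, 22.1, 4.19, 13.3 and 41.4 CPM at 48 HAF, again with OE78 lowest and WT highest. The CRISPR minus overexpression difference at 48 HAF was 1.80 ± 0.53 (adjusted p = 0.764, edgeR). It was 1.17 without OE78 and 2.91 without OE79, where it was called (edgeR adjusted p = 0.0149). DREB1G (LOC_Os02g45450) was the weakest of the 4, with 1.35 CPM (21 reads) in CR78, 0.163 (2 reads) in CR79, 10.3 in OE78, 23.3 in OE79 and 7.76 in WT at 72 HAF. In the order of the same lines, the 48 HAF values were 9.64, 4.44, 1.94, 6.65 and 11.1 CPM, where CR79 lay between the overexpression lines, and the difference was 0.75 ± 0.63 (adjusted p = 0.788, edgeR). The DREB1G difference was 0.087 without CR78, 0.099 without OE78, 1.21 without CR79 and 1.94 without OE79.

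Among the other DREB1 genes, DREB1A (LOC_Os09g35030) was left out because its WT level at 72 HAF was 0.396 times that at 48 HAF. It stood at 12.1 CPM in CR78, 1.14 in CR79, 40.2 in OE78, 63.7 in OE79 and 25 in WT at 72 HAF, and at 52.2, 51.8, 5.50, 24.8 and 63.2 CPM at 48 HAF. DREB1E (LOC_Os04g48350) missed the ratio at 0.750, with 18.2 CPM in CR78, 1.55 in CR79, 39.6 in OE78, 60.1 in OE79 and 24.2 in WT at 72 HAF. Both had the order of lines seen in DREB1B, CR79 lowest and OE79 highest at 72 HAF. DREB1F (LOC_Os01g73770) had at most 0.456 CPM in any library at 72 HAF. DREB1D (LOC_Os06g06970) was also low and had another order. It was highest in CR79 at 72 HAF, at 0.897 CPM (11 reads), and in OE78 at 48 HAF, at 1.25 CPM (20 reads). DREB1A, DREB1B and DREB1H carry neighbouring identifiers, and the counting rule for reads shared by close copies is not given in the sources used here, so their separate values are uncertain.

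Abscisic acid genes were members on both the breakdown and the signalling side. Of the 4 genes of the synthesis and breakdown list that met the other conditions, 2 were members, both 8'-hydroxylases. ABA8ox1 (LOC_Os02g47470) stood at 18.5 CPM in CR78, 6.36 in CR79, 66.0 in OE78, 137 in OE79 and 50.6 in WT at 72 HAF. At 48 HAF it stood at 80.2, 119, 44.7, 82.6 and 105 CPM, with OE78 lowest and CR79 highest. ABA8ox3 (LOC_Os09g28390) stood at 6.93 CPM in CR78, 4.89 in CR79, 23.5 in OE78, 48.3 in OE79 and 28.2 in WT at 72 HAF. Its 48 HAF values were 57.3, 58.2, 20.6, 39.6 and 57.1 CPM in the same lines, so both CRISPR lines stood above both overexpression lines and level with WT. The remaining 8'-hydroxylase, ABA8ox2 (LOC_Os08g36860), was no member and ran the other way at 72 HAF, with 20.6 CPM in CR78, 28.4 in CR79, 7.34 in OE78, 16.5 in OE79 and 13.2 in WT.

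Of 16 clade A PP2C and SnRK2 genes that met the other conditions, 2 were members, both phosphatases. PP2C30 (LOC_Os03g16170) stood at 82.0 CPM in CR78, 11.7 in CR79, 156 in OE78, 197 in OE79 and 166 in WT at 72 HAF. The same lines held 278, 199, 104, 193 and 233 CPM at 48 HAF, with OE78 alone well under the rest. PP2C68 (LOC_Os09g15670) stood at 19.6 CPM in CR78, 5.95 in CR79, 34.4 in OE78, 58.3 in OE79 and 48.6 in WT at 72 HAF. Of 15 genes of abscisic acid response and dehydration, 2 were members. The dehydrin DHN1 (LOC_Os02g44870), the most abundant member in WT, stood at 407 CPM in CR78, 336 in CR79, 815 in OE78, 1108 in OE79 and 719 in WT at 72 HAF, and at 908, 589, 436, 824 and 959 CPM at 48 HAF. The salt-induced lectin SalT (LOC_Os01g24710) stood at 16.88 CPM in CR78, 16.2 in CR79, 37.4 in OE78, 51.1 in OE79 and 33.7 in WT at 72 HAF. Unlike DHN1, SalT was highest in the overexpression lines at 48 HAF, with 71.0 CPM in CR78, 46.3 in CR79, 75.2 in OE78, 106 in OE79 and 29.1 in WT.

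Ethylene genes gave the largest number of members from a list, 4 of 10 that met the other conditions. All 4 are listed under the synthesis steps. The ACC oxidase ACO1 (LOC_Os09g27820) stood at 8.02 CPM in CR78, 5.38 in CR79, 27.3 in OE78, 48.9 in OE79 and 33.2 in WT at 72 HAF, and at 40.5, 50.2, 19.2, 51.1 and 61.0 CPM at 48 HAF. LOC_Os09g27750, listed as a further ACC oxidase, stood at 4.43 CPM in CR78, 1.87 in CR79, 10.4 in OE78, 18.8 in OE79 and 12.9 in WT at 72 HAF. The ACC synthase ACS1 (LOC_Os03g51740) stood at 1.86 CPM in CR78, 1.79 in CR79, 6.45 in OE78, 17.85 in OE79 and 13.6 in WT at 72 HAF. ACS2 (LOC_Os04g48850), also an ACC synthase, lay close to the limit of the rule, with 6.42 CPM in CR78, 4.56 in CR79, 10.9 in OE78, 15.2 in OE79 and 15.2 in WT. At 48 HAF OE78 was the lowest library for ACS1 and ACS2 as well, with 4.50 and 7.07 CPM. A further ACC oxidase, ACO3 (LOC_Os02g53180), was no member and ranged between 68.5 and 98.4 CPM at 72 HAF, highest in CR79.

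**Figure D3:**
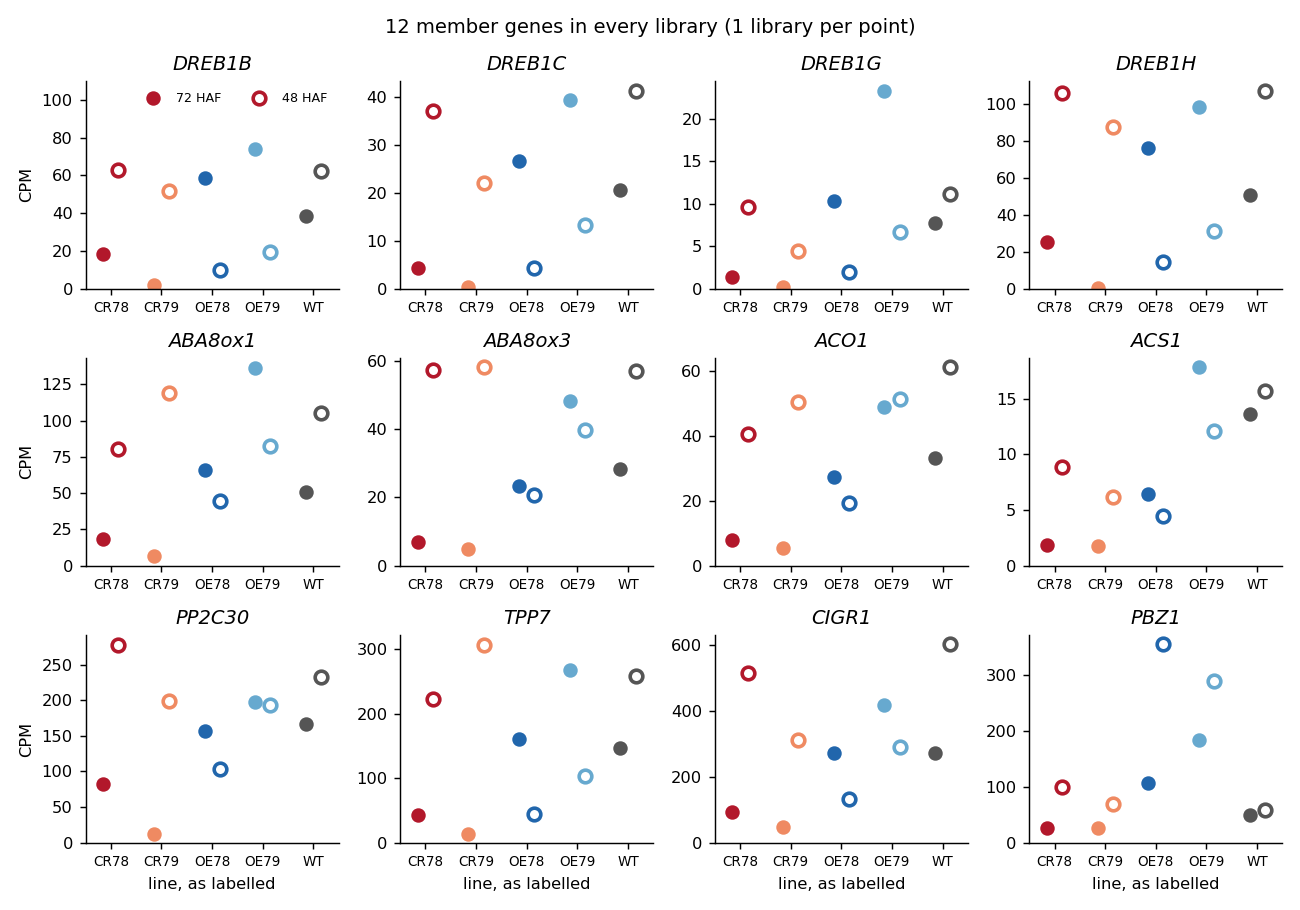
CPM of 12 members in every library, 1 library per point, with 72 HAF filled and 48 HAF open and the lines from left to right as CR78, CR79, OE78, OE79 and WT. For DREB1B the CRISPR lines stood at 18.3 and 1.63 CPM at 72 HAF, under every other filled point, and at 62.7 and 51.6 CPM at 48 HAF, above the open points of the overexpression lines. PBZ1 differs from the rest, with its highest points in OE78 and OE79 at 48 HAF.

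Further members were named after their values were seen. TPP7 (LOC_Os09g20390), a trehalose-6-phosphate phosphatase, stood at 42.2 CPM in CR78, 12.9 in CR79, 161 in OE78, 268 in OE79 and 147 in WT at 72 HAF. In the order of the same lines, the 48 HAF values were 224, 307, 44.4, 103 and 259 CPM, so both CRISPR lines exceeded both overexpression lines (1.89 ± 0.41, adjusted p = 0.596, edgeR). Without OE79 the difference was 2.66 and was called (edgeR adjusted p = 0.00638). The stress-related MYB factor MYB2 (LOC_Os03g20090) stood at 1.60 CPM in CR78, 0.326 (4 reads) in CR79, 12.2 in OE78, 31.4 in OE79 and 10.98 in WT at 72 HAF, and at 14.98, 16.7, 2.06, 8.08 and 24.0 CPM at 48 HAF. The calmodulin-like CML31 (LOC_Os01g72530) stood at 21.2 CPM in CR78, 2.45 in CR79, 67.4 in OE78, 134 in OE79 and 65.2 in WT at 72 HAF. A second one, CML16 (LOC_Os01g04330), stood at 25.6 CPM in CR78, 9.95 in CR79, 68.8 in OE78, 119 in OE79 and 60.4 in WT.

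The same order at 72 HAF, CR79 lowest and OE79 highest, held in most named members. ACA7 (LOC_Os10g28240), a calcium pump, stood at 14.2 CPM in CR78, 2.85 in CR79, 65.5 in OE78, 115 in OE79 and 68.7 in WT. CIGR1 (LOC_Os07g36170), a chitin-inducible gibberellin-responsive GRAS protein, stood at 92.8 CPM in CR78, 47.0 in CR79, 273 in OE78, 419 in OE79 and 272 in WT, and at 517, 313, 132, 290 and 603 CPM at 48 HAF. Its relative CIGR2 (LOC_Os07g39470) stood at 90.1 CPM in CR78, 44.7 in CR79, 169 in OE78, 292 in OE79 and 207 in WT at 72 HAF. XB15 (LOC_Os03g60650), a phosphatase that restrains immune signalling from the receptor kinase XA21, stood at 28.6 CPM in CR78, 17.2 in CR79, 70.1 in OE78, 110 in OE79 and 68.7 in WT. The expansin-like EXLA2 (LOC_Os10g39640) was an exception in which CR78 was the lowest, with 10.9 CPM in CR78, 11.8 in CR79, 34.6 in OE78, 54.1 in OE79 and 29.3 in WT. Of the 25 members whose name passed a check of position, 23 were lowest in CR79 and 24 highest in OE79 at 72 HAF. At 48 HAF, 21 of them were lowest in OE78. Over all 244 members the same counts were 195, 218 and 187. Among the 16001 genes the shares were 39.0%, 19.4% and 12.6%. Of the 25 names, 11 were added after the values were seen, and the 72 HAF values were among those that chose the members.

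A minority behaved differently at 48 HAF. Both CRISPR lines were above both overexpression lines for 87 members (35.7%, against 14.5% of the 16001 genes) and below both for 21 members (8.61%, against 26.5%). The defence gene PBZ1 (LOC_Os12g36880), a PR10 protein induced by probenazole, was among these 21. It stood at 99.9 CPM in CR78, 68.6 in CR79, 356 in OE78, 291 in OE79 and 58.7 in WT at 48 HAF, a difference of -1.88 ± 0.22 (adjusted p = 0.321, edgeR). It was called without OE78 and without OE79 (edgeR adjusted p = 0.0386 and 0.0100). At 72 HAF it stood at 27.1 CPM in CR78, 26.3 in CR79, 108 in OE78, 184 in OE79 and 48.9 in WT. The overexpression lines thus exceeded both the CRISPR lines and WT at both times. The other 2 members that DESeq2 called lower at 48 HAF, named for that call, were LOC_Os11g47809 and LOC_Os01g42860. LOC_Os01g42860 stood at 8.87 CPM in CR78, 6.28 in CR79, 18.3 in OE78, 29.2 in OE79 and 7.35 in WT at 48 HAF, and LOC_Os11g47809 at 27.8, 21.8, 58.6, 53.8 and 38.5 CPM.

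The meristem genes OSH1 and FON1 were the members of the embryo and meristem list, 2 of 6 genes that met the other conditions. OSH1 (LOC_Os03g51690), a KNOX homeobox factor of the shoot meristem, stood at 2.12 CPM in CR78, 1.47 in CR79, 6.33 in OE78, 12.7 in OE79 and 8.26 in WT at 72 HAF. At 48 HAF it stood at 22.4, 9.39, 25.6, 19.7 and 12.1 CPM, and here OE78 was the highest library. FON1 (LOC_Os06g50340), a receptor kinase that limits floral meristem size, stood at 7.00 CPM in CR78, 7.99 in CR79, 13.7 in OE78, 26.2 in OE79 and 26.4 in WT at 72 HAF, and at 27.1, 24.0, 33.4, 34.5 and 26.9 CPM at 48 HAF. For both genes all lines were lower at 72 than at 48 HAF.

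The members changed over time in different directions in the lines. As these ratios contain the 72 HAF values that chose the genes, they are a description. The median member at 72 HAF was 0.299 times its 48 HAF level in CR78, 0.248 times in CR79, 1.47 times in OE78, 1.24 times in OE79 and 0.622 times in WT. For the genes that met the other conditions and had reads at 48 HAF, the same medians ran between 0.890 in CR79 and 0.997 in WT. The number of members higher at 72 than at 48 HAF was 2 in CR78, 1 in CR79, 181 in OE78, 166 in OE79 and 14 in WT. Among the 16001 genes the shares higher at 72 HAF were 42.3% in CR78, 37.0% in CR79, 38.1% in OE78, 41.9% in OE79 and 49.4% in WT. LOC_Os02g37970, named for its values, was the gene that was higher at 72 HAF in both CRISPR lines. MYB2, DREB1B and DREB1C had 72 over 48 HAF ratios of 5.89, 5.99 and 6.37 in OE78 and of 0.0195, 0.0316 and 0.0184 in CR79.

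**Figure D4:**
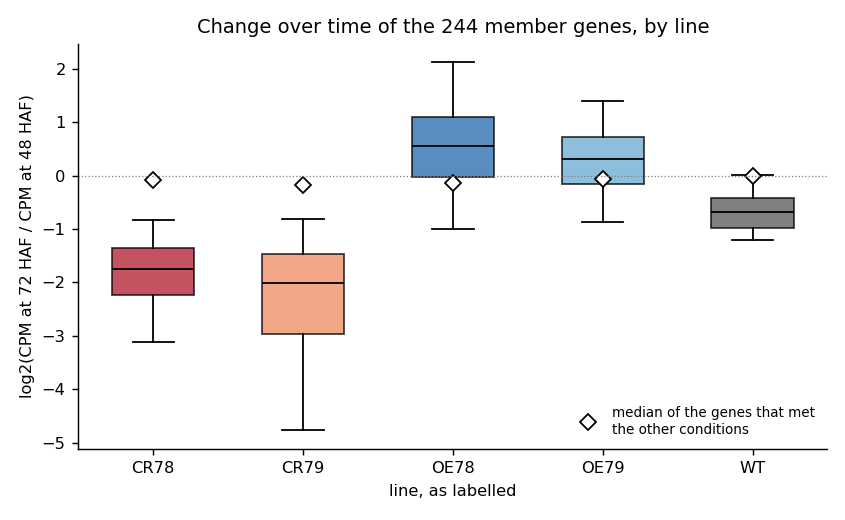
Each box gives the log2 ratio of CPM at 72 over 48 HAF for the 244 members in a line (quartiles and median; whiskers, 5th to 95th percentile), and diamonds mark the median of the genes that met the other conditions. The median ratio was 0.299 in CR78, 0.248 in CR79, 1.47 in OE78, 1.24 in OE79 and 0.622 in WT.

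The members with the lowest ratio of the higher CRISPR value to the lowest other value were often low in reads. LOC_Os04g48290 had the lowest ratio, 0.0399, with 0.321 CPM (5 reads) in CR78, 0.163 (2 reads) in CR79, 8.04 in OE78, 18.2 in OE79 and 9.37 in WT at 72 HAF. LOC_Os04g45340 followed with 0.578 CPM (9 reads) in CR78, 0.408 (5 reads) in CR79, 8.92 in OE78, 12.05 in OE79 and 5.76 in WT. Then came MYB2, LOC_Os02g51970, DREB1G, LOC_Os02g45420, LOC_Os11g04830 and DREB1C, with ratios up to 0.209. LOC_Os02g45420 carries an identifier near that of DREB1G and stood at 6.29 CPM in CR78, 3.59 in CR79, 37.7 in OE78, 68.1 in OE79 and 35.5 in WT. The median ratio over all members was 0.491, and 129 members were at or below 0.5. In the CRISPR libraries at 72 HAF, 16 members had fewer than 10 reads in at least 1 library, and the median of the lower count was 90 reads.

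The most abundant members in WT at 72 HAF after DHN1 were LOC_Os01g09220, LOC_Os01g70790, LOC_Os01g40070, LOC_Os05g03760, LOC_Os03g13840, LOC_Os03g05750 and CIGR1. LOC_Os01g09220 stood at 223 CPM in CR78, 36.0 in CR79, 515 in OE78, 942 in OE79 and 530 in WT at 72 HAF, and at 707, 621, 248, 539 and 827 CPM at 48 HAF. LOC_Os03g05750 stood at 139 CPM in CR78, 46.3 in CR79, 349 in OE78, 386 in OE79 and 286 in WT at 72 HAF, and at 396, 359, 110, 164 and 320 CPM at 48 HAF. For LOC_Os03g05750 the CRISPR lines exceeded both the overexpression lines and WT at 48 HAF (1.51 ± 0.24 against the overexpression lines, adjusted p = 0.440, edgeR), and the difference was 1.86 without OE79, where it was called (edgeR adjusted p = 0.0141).

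At the limit of the rule, the 3 members just inside were LOC_Os12g41680, LOC_Os03g57450 and LOC_Os04g50120, and the 3 genes just outside were LOC_Os09g25100, LOC_Os03g05460 and LOC_Os02g24080. LOC_Os04g50120, inside, stood at 13.8 CPM in CR78, 8.23 in CR79, 26.0 in OE78, 39.6 in OE79 and 23.0 in WT at 72 HAF. LOC_Os09g25100, outside, stood at 36.5 CPM in CR78, 16.87 in CR79, 60.8 in OE78, 76.9 in OE79 and 61.4 in WT. Of these 6 genes, 4 were lowest in CR79 and 2 in CR78, and 5 were highest in OE79.

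Of 31 gene lists, 9 held a member and 22 held none. Members made up 17 of the 366 listed genes that met the other conditions (4.64%), against 1.52% of all genes that met them. The lists were chosen with earlier results of these data known. Neither the 4.64% nor the counts of single lists are thus read as a trait of the members. Lists without a member included starch synthesis with 28 such genes, chromatin and DNA methylation with 25, photosynthesis and chlorophyll with 23, DNA replication and the cell cycle with 20, expansins with 14, and cell wall synthases and remodelling with 13. The heat list gave 2 of 13, DREB1B and DREB1C, and its heat shock proteins gave none. The defence list gave PBZ1 alone of 12. Of the 21 genes of sugar use and transport, LOC_Os07g37320 was the member, at 20.1 CPM in CR78, 20.4 in CR79, 34.1 in OE78, 88.8 in OE79 and 51.7 in WT at 72 HAF. Of 13 grain size genes, LOC_Os07g41200 was the member, at 65.6 CPM in CR78, 45.0 in CR79, 147 in OE78, 314 in OE79 and 170 in WT.

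Members lay on every chromosome, from 0.858% of the genes that met the other conditions on chromosome 8 to 1.99% on chromosome 1. Another member lay within 100 identifier units of 56 members (23.0%), and a member lay that close to 10.3% of the genes that met the other conditions and were no member. These neighbours formed 26 groups of at most 4 genes. They include DREB1B with DREB1H, DREB1G with LOC_Os02g45420, and ACO1 with LOC_Os09g27750.

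Some markers of seed tissues and of the clock also differed between the libraries. The summed level of 7 endosperm regulators was 322 CPM in CR78, 236 in CR79, 91.8 in OE78, 59.7 in OE79 and 64.1 in WT at 72 HAF, and between 1.30 and 18.1 CPM at 48 HAF, where 3 or 4 of the 7 had no read. None of the 7 was a member. The endosperm factor NF-YB1 (LOC_Os02g49410) stood at 12.9 CPM in CR78, 10.9 in CR79, 3.16 in OE78, 4.30 in OE79 and 4.60 in WT at 72 HAF. At 72 HAF the endosperm sum and NF-YB1 were thus higher in both CRISPR lines than in OE78, OE79 and WT. Both were higher in CR78 than in CR79, where most members were lowest. At 48 HAF the endosperm sum was highest in CR79, at 18.1 CPM. It was 10.3 CPM in OE78, where most members were lowest at that time. At 72 HAF the other marker sums of the CRISPR lines lay nearer to those of OE78, OE79 and WT: 12786 and 10830 CPM against 10803 to 12819 for 25 genes of the green pericarp, 163 and 131 against 118 to 152 for 13 of the seed coat, 425 and 348 against 347 to 393 for 3 of the nucellus, 309 and 235 against 306 to 315 for the embryo list of 15 without its 2 members, and 89.6 and 81.6 against 90.8 to 105 for 11 of the anther. The heat list of 23, without its 2 members, summed to 1634 CPM in CR78 and 1765 in CR79 at 72 HAF. In OE78, OE79 and WT it summed to 1857 to 2127 CPM. At 48 HAF the same sum was 2438 CPM in CR78, 2133 in CR79, 1874 in OE78, 1691 in OE79 and 2644 in WT. The overexpression lines were thus the lowest at 48 HAF.

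The morning clock gene LHY (LOC_Os08g06110) stood at 60.7 CPM in CR78, 94.8 in CR79, 288 in OE78, 187 in OE79 and 31.5 in WT at 72 HAF. Its 48 HAF values were 91.9, 145, 403, 201 and 113 CPM in the same lines. LHY was thus highest in OE78 at both times. The evening gene GI (LOC_Os01g08700) stood at 402 CPM in CR78, 345 in CR79, 229 in OE78, 292 in OE79 and 634 in WT at 72 HAF, and at 478, 323, 183, 301 and 315 CPM at 48 HAF. Other clock genes ranged less between the lines than LHY and GI. PRR37 (LOC_Os07g49460) lay between 98.1 and 107 CPM at 48 HAF and between 40.0 and 68.6 CPM at 72 HAF. PRR73 (LOC_Os03g17570) lay between 283 and 373 CPM at 48 HAF and between 235 and 318 CPM at 72 HAF. PRR95 (LOC_Os09g36220) lay between 63.5 and 121 CPM at 48 HAF and between 60.8 and 134 CPM at 72 HAF. The clock gene LOC_Os02g40510 lay between 66.4 and 124 CPM at 48 HAF and between 60.4 and 108 CPM at 72 HAF. PRR37, PRR73, PRR95 and LOC_Os02g40510 were, like GI, highest in WT at 72 HAF. So was the clock gene LOC_Os11g05930, at 37.2 CPM in WT against 24.5 CPM in CR79, while LHY was lowest in WT. HSP101 (LOC_Os05g44340), a heat-induced chaperone, stood at 146 CPM in CR78 at 48 HAF, against 11.26 to 15.6 in the other libraries at that time. CR79 at 72 HAF had the lowest total count and the largest share of counts in its 50 most abundant genes, 15.1% against 7.91% to 9.28% in the other libraries at 72 HAF. The part of these markers, of the clock genes and of the library differences in the members' values was not tested.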

How the data were processed

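The deposited values were counts of reads per gene, 1 file per library, for 55801 LOC_Os identifiers. Per the submitters' processing notes, the tools were TopHat2 and HTSeq, without versions. What genome build, gene annotation and strand option they ran with is not given in the sources used here, so overlapping and antisense genes and close copies cannot be told apart, and no coordinates are printed. RNA was extracted with a plant column kit and sequenced after standard Illumina preparation, per the labels' protocols. CPM used the file totals. Intervals of counting error were not computed, and the lowest values in the CRISPR libraries at 72 HAF are given with their reads.

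The test at 48 HAF used edgeR 4.0.16 in R 4.3.3: genes passing filterByExpr at a minimum count of 10, TMM scaling, means for the classes WT, overexpression and CRISPR, and Benjamini-Hochberg adjustment over all 25124 tested genes with a threshold of 0.05. All 244 members were tested. The fit left 2 residual degrees of freedom, and its biological coefficient of variation was 22.5%. DESeq2 1.42.0, other scalings and filters, all 10 libraries together and leaving out single libraries were alternatives. The scripts were tested on simulated data. The values at 72 HAF and the changes over time got no test.

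Members and gene lists were chosen with earlier results of these data known. Names of 605 listed genes came from general knowledge of published pairs of name and identifier. Of these, 401 matched a symbol or synonym at the fitting place in RefSeq (assembly ASM3414082v1), 195 names were not in that table and were used by identifier, 6 were contradicted and 3 identifiers were not found; the last 9 were dropped. A further 14 names were added after the values were seen. Named in the text are the listed members, the 8 most abundant in WT at 72 HAF, the 8 with the lowest ratio, 3 genes on either side of the limit, and the genes the text says were named after their values were seen. The other DREB1 genes, ABA8ox2, ACO3, LOC_Os11g47809, LOC_Os01g42860, LOC_Os02g37970, LOC_Os03g19920 and the clock and heat genes were also chosen after their values were seen.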

Additional observations from a re-analysis of the deposited data

Results flagged for a closer look

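For 87 of the 244 members, both CRISPR libraries stood above both overexpression libraries at 48 HAF and below them at 72 HAF. The order at 48 HAF held in 14.5% of the 16001 genes that met the other conditions. This was flagged because the libraries of the CRISPR lines lay on opposite sides of those of the overexpression lines at the 2 times. The order at 72 HAF was fixed by the choice of genes, and the difference between the times was not tested. DREB1B, DREB1H, DREB1C, TPP7, ABA8ox3 and LOC_Os03g05750 were among the 87. Over all members the median log2 difference at 48 HAF was 0.39 with all libraries and 0.050 without OE78.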

How the results depend on the processing

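At 48 HAF the members called numbered 0 in edgeR with all 5 libraries, 17 by DESeq2, and 0 to 55 when 1 library was left out. The members' median log2 difference was 0.39. With the targeted gene of the line labels as a replicate block, an alternative added after seeing the data, 2 members were called. They were LOC_Os03g19920, higher, and PBZ1, lower (edgeR adjusted p = 0.0304 and 0.0317). In that fit 10 of the 25124 tested genes were called higher and 5 lower. The members' median was 0.47, against 0.00062 for all tested genes. The lines of a block share only the targeted gene. The median was 0.092 against the overexpression lines and WT together, and 0.050 to 1.01 when 1 library was left out. In an alternative added after seeing the data, without CR78 and OE78 at 48 HAF in a fit of all other libraries, it was -0.090. Other scalings, no filter and all 10 libraries gave medians of 0.34 to 0.39 and 0 calls. DREB1G alone among 7 genes followed through the settings turned its direction, to -0.56 without CR78 and OE78. The cause was not tested. Without OE79, DREB1B, DREB1C, DREB1H, TPP7, LOC_Os03g05750 and PBZ1 passed the threshold of edgeR. The rule gave 129 genes at a ratio of 0.5, 490 at 0.7 and, in alternatives added after seeing the data, 809 when CR79 alone had to meet it and 343 when CR78 alone had to. It gave 221 on TMM-scaled CPM (218 shared with the 244), 192 at a CPM minimum of 10, 303 at 2 and 321 without the WT condition. Depth limits the 16 members with fewer than 10 reads in a CRISPR library at 72 HAF.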
